A study of Homo sapiens with 6 samples.

Results

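The 10 genes described here encode contractile actin and the smooth-muscle-type proteins that bind it. They are smooth muscle actin (ACTA2), the transgelins (TAGLN, TAGLN2), 2 calponins (CNN1, CNN2), 3 tropomyosins (TPM1, TPM2, TPM4), the regulatory myosin light chain MYL9 and caldesmon (CALD1). They were taken by symbol from the 60660 genes of the count files, and all 10 were among the 15155 genes that passed the filter on low counts. The cells were 12Z, an established epithelial line from endometriosis, and their RNA was sequenced 72 h after transfection. In 3 control libraries the cells had received a non-targeting control siRNA, and in 3 knockdown libraries siRNA LINC01133a at 10 nM, which targets the long noncoding RNA LINC01133. All 6 libraries thus come from 1 cell line after transfection, and knockdown cells had received a single siRNA sequence, so that effects of its sequence and of the loss of LINC01133 cannot be told apart.

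In cells that contract, myosin II pulls on actin filaments, and phosphorylation of the regulatory light chain by myosin light chain kinase starts the pull. Tropomyosin, caldesmon, calponin and transgelin lie along the filament and set how stable it is and how easily myosin reaches it. Fibroblasts that become myofibroblasts in healing tissue and in endometriosis lesions are recognised by ACTA2, TAGLN and CNN1, whereas TAGLN2, CNN2, TPM4 and most forms of CALD1 are also made by cells that are not muscle. Many of these genes are read by serum response factor (SRF) with its actin-sensing cofactors, which binds a DNA element called the CArG box.

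The changes among the 10 genes went in both directions. The 3 genes that rose in knockdown cells were CNN1, to 258% of the control level, ACTA2, to 138%, and TPM1, to 119%. TAGLN2 fell to 72.1% and TPM2 fell to 81.4%. For TAGLN, CNN2, MYL9, TPM4 and CALD1 the test was not passed. The test was edgeR's quasi-likelihood test with an adjusted p under 0.05 over all genes tested, and it called 48.3% of all genes tested (23.3% higher and 25% lower), so that 5 of 10, 3 higher and 2 lower, lies near the background. The values of control and knockdown libraries did not overlap for the same 5 genes, against 57.3% of all genes tested. With a fold change over 1.5 as a further cutoff, CNN1 was the single gene of the 10 called, against 11.7% of all genes tested. The median log2 fold change was 0.063 over the 10 genes and 0.0032 over all genes tested.

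The siRNA strands are shown because a match to the seed (bases 2 to 8, in capitals) is a known way for an siRNA to act on other mRNAs.
Guide strand of siRNA LINC01133a: uCCAUUCUcagguaacuucaa
Sense strand of siRNA LINC01133a: gAAGUUACcugagaauggatt
The 7 bases that pair with the seed of the guide strand were searched in the 3′ UTR of 1 transcript per tested gene (MANE Select, GENCODE v44). They were present in 17.1% of 12447 such UTRs and in 0 of those of the 10 genes. The match to the seed of the sense strand, present in 13.6% of these UTRs, was found in CALD1 alone among the 10, on chromosome 7 from 134969687 to 134969711 of GRCh38, plus strand, where capitals mark the match.
CALD1, 3′ UTR: aaattatatGTAACTTctactagtt
CALD1 was one of the genes that did not pass the test. For the 5 genes past the test the UTRs searched were short, from 149 bases (ACTA2) to 689 bases (TAGLN2). For the other 5 genes they held 1165 (CNN2) to 3105 bases (TAGLN). The shares over all UTRs do not take length into account, and a short UTR has less room for a match.

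Proximal promoters are shown for ACTA2 and CNN1, the classical smooth muscle markers that rose, and for CNN2 and TPM4, which did not pass the test. They are RefSeq sequences of GRCh38.p14 that run from 250 bases before to 50 bases after a transcription start. Such windows were at hand for 8 of the 10 genes (17 windows, some genes having several starts), and not for MYL9 and TAGLN. Of 2 windows of ACTA2 and 3 of TPM4, the one that holds a box is shown, and the others hold neither element. Capitals mark CArG boxes, with at most 1 C or G allowed among the inner 6 bases, and the MCAT element CATTCC, the binding motif of TEAD factors, on either strand. The windows lie at chr10:88952724-88953023 (minus strand) for ACTA2, and at chr19:11538601-11538900, chr19:1026358-1026657 and chr19:16067288-16067587 (plus strand) for CNN1, CNN2 and TPM4.
ACTA2: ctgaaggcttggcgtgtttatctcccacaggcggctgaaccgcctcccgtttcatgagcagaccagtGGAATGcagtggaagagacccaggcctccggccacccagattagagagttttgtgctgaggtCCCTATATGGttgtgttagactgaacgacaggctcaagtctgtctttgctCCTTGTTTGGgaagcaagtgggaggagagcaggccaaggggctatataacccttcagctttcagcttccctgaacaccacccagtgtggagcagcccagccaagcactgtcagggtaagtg
CNN1: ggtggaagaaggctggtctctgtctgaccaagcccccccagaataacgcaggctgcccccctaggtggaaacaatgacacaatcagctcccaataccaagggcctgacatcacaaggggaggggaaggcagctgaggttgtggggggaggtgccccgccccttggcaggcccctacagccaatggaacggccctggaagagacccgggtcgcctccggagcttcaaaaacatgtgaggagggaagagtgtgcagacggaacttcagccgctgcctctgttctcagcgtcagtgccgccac
CNN2: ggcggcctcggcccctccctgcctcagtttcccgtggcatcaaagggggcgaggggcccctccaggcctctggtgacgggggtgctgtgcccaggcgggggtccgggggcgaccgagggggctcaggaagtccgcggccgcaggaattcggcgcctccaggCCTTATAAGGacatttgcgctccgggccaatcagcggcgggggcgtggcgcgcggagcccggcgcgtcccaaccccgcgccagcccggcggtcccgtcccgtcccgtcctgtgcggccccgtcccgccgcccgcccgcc
TPM4: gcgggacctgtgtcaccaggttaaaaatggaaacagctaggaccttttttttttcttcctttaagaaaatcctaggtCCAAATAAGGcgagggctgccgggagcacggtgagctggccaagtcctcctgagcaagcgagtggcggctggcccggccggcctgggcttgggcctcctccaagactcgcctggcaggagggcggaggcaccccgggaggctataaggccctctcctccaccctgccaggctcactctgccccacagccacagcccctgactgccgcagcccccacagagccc
The ACTA2 window held 2 such boxes, 121 and 71 bases before the start, each with 1 C or G inside, and 1 MCAT element. CNN2 and TPM4 each held a box with only A and T inside, 89 and 173 bases before the start, while these letters were not in the CNN1 window. A box with only A and T inside was present in 1.29% of all 35116 RefSeq windows, one with at most 1 C or G in 8.13%, and the MCAT element in 14.0%. Of the 17 windows 4 held a box of either kind, the last being one of CALD1, and 3 held the MCAT element, 1 of ACTA2 and 2 of CALD1.

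The libraries held 27742562 to 37551194 counts on genes. Values are given as normalized counts, with the mean ± SD of n = 3 libraries per group. LINC01133 itself was at 823 ± 12.8 with the control siRNA and at 133 ± 4.68 after knockdown. Control replicate 2 stood apart from the other controls (mean chi-square per gene of 11.8 and 12.8 against them, and 3.73 between those). Without it, 6 of the 10 genes were called, with TAGLN added, and over all genes 7185 were called instead of 7315. As for the label of the cells, keratin RNA was abundant (KRT8 at 104551 ± 2608 normalized counts in control cells), and CDH1 (412 ± 36.6) and MUC1 (768 ± 83.8) were present. EPCAM (13.6 ± 4.33) and CLDN4 (14.8 ± 3.39) were low, and ESRP1 had 0 or 1 count in each library. The same control cells had 87700 ± 7163 normalized counts of the collagen gene COL1A1.

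ACTA2 (ENSG00000107796.13) encodes smooth muscle alpha-actin, the protein by which myofibroblasts are defined, and lies on the minus strand of chromosome 10 from 88935074 to 88991339 of GRCh38. Its normalized counts were 89.0, 99.1 and 80.8 with the control siRNA and 140, 118 and 113 after knockdown. All knockdown libraries lay above all control libraries. The log2 fold change was 0.48 (standard error 0.13, edgeR adjusted p = 0.0097), and without knockdown replicate 1, the highest library, it was 0.38 with an adjusted p of 0.061. The gene overlaps ACTA2-AS1, STAMBPL1 and FAS on the opposite strand, and the counts without regard to strand kept 40.2% of its reads. GENCODE v44 also names overlapping genes on the same strand for ACTA2, TAGLN and CALD1, so that some of their reads may be missing from the counts used. The antisense RNA ACTA2-AS1 itself had 8, 2 and 0 counts in control and 3, 3 and 1 in knockdown libraries.

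Per kilobase of exon, ACTA2 had the lowest level of the 10 genes, at 15.9 ± 1.63 normalized counts in control and 22.0 ± 2.49 in knockdown cells. CNN1 followed at 27.8 ± 0.384 and 71.5 ± 8.66. TAGLN was next at 720 ± 60.2 in control cells, and TAGLN2 the highest at 12838 ± 348. In between, TPM2 (3015 ± 131), CALD1 (2837 ± 90.4), TPM4 (2533 ± 18.7) and CNN2 (2417 ± 89.9) lay close, and the control libraries of TPM2 and CALD1 overlapped. MYL9 (1959 ± 124) and TPM1 (1123 ± 24.3) were below them. In knockdown cells TPM2 (2455 ± 17.8) came after CALD1, TPM4 (2539 ± 67.1) and CNN2 (2532 ± 120). The 2 genes of lowest level were thus those with the highest log2 fold changes. These levels use the length of all annotated exons together, which understates genes with many isoforms such as TPM1.

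Among the actins that every cell makes, ACTB had 125556 ± 7920 normalized counts in control and 103758 ± 6027 in knockdown cells (log2 fold change -0.28, adjusted p = 5.5e-04). ACTG1 did not pass the test, at -0.03 (95% interval -0.12 to 0.06). Reads of both can be lost to their pseudogenes, of which GENCODE names 12 for ACTB and 21 for ACTG1, since only reads with a single place in the genome were counted. The other muscle actins were below the filter, with 1 to 8 counts per library for ACTG2, 5 to 14 for ACTC1 and 0 to 2 for ACTA1. ACTA2 was therefore the only muscle actin above the filter.

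CNN1 (ENSG00000130176.8) encodes basic calponin, which binds actin and slows the myosin motor in smooth muscle. The gene is on chromosome 19 from 11538767 to 11550323, plus strand. Its normalized counts were 77.6, 78.9 and 79.8 in control libraries (82, 70 and 77 counts before scaling), and 220, 215 and 175 in knockdown libraries. Even the lowest knockdown library was far above the highest control library. The log2 fold change was 1.37 (standard error 0.12, edgeR adjusted p = 1.4e-06), and it lay between 1.31 and 1.47 over 13 alternatives, past both cutoffs in each.

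CNN2 (ENSG00000064666.15, chromosome 19 from 1026586 to 1039068), the calponin of non-muscle cells and of smooth muscle, had 8983, 8993 and 8421 normalized counts in control and 9351, 9567 and 8727 in knockdown libraries. These groups overlapped, and the log2 fold change was 0.07 (95% interval -0.03 to 0.16, adjusted p = 0.22). The third calponin, CNN3, fell from 19353 ± 149 to 17423 ± 365 (log2 fold change -0.15, adjusted p = 0.0022). Hence 1 calponin rose, 1 fell and 1 did not pass the test, where 23.3% of all genes tested rose and 25% fell. GENCODE names 11 pseudogenes of CNN2, whose reads may be lost from it.

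**Figure D1:**
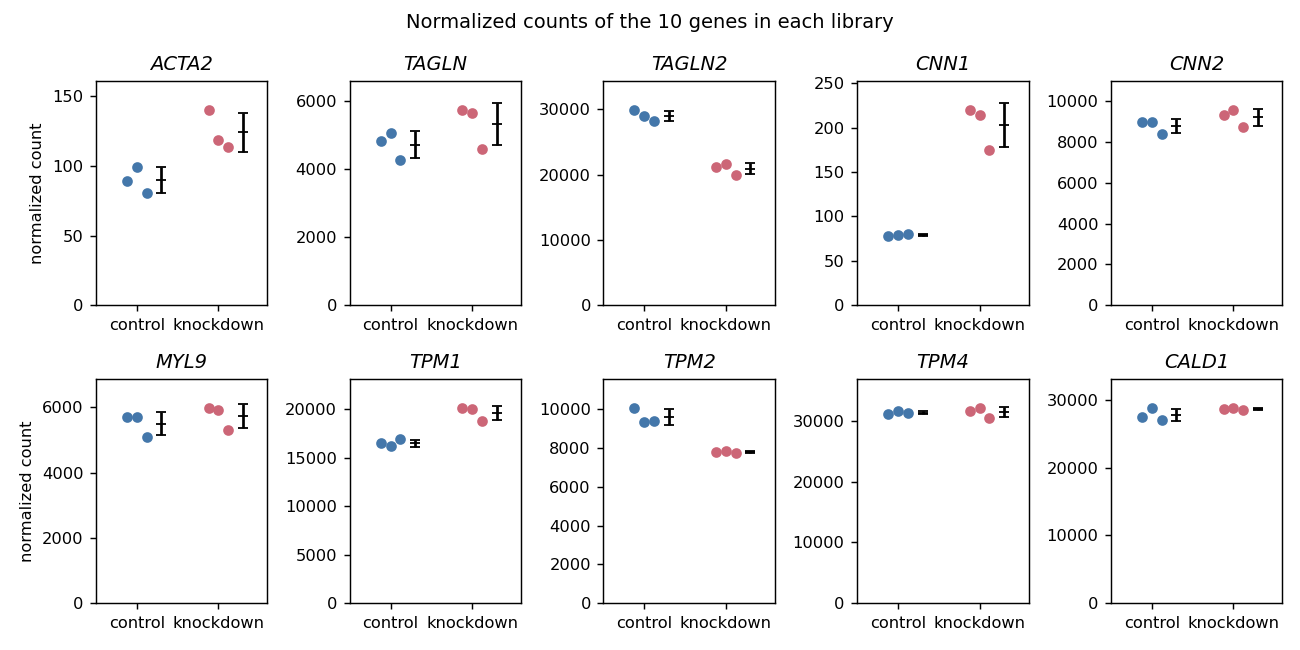
Normalized counts (vertical axes, each from 0) of the 10 genes in the 3 control and 3 knockdown libraries; points are libraries, and the bar beside them is the mean ± SD. For CNN1, ACTA2 and TPM1 the knockdown libraries lie above all control libraries, for TAGLN2 and TPM2 below, and for the other 5 genes the groups overlap.

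Transgelin (TAGLN, ENSG00000149591.17, also called SM22) is a marker of smooth muscle and myofibroblasts that cross-links actin, with its gene on chromosome 11 from 117199370 to 117207464. It had 4814, 5050 and 4280 normalized counts in control libraries and 5727, 5641 and 4603 in knockdown libraries. Knockdown replicate 3 lay within the range of the controls, and the other 2 lay above it. The log2 fold change of 0.18 (standard error 0.076) had an adjusted p of 0.070 from edgeR. The gene overlaps PCSK7 on the opposite strand, and counts without regard to strand kept 72.3% of its reads. Its call turned on single libraries, since without knockdown replicate 3 it was 0.27 (adjusted p = 0.0036) and without control replicate 2 it was 0.23 (adjusted p = 0.0069).

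TAGLN2 (ENSG00000158710.15) encodes the transgelin found in many cells that are not muscle, and lies on the minus strand of chromosome 1 from 159918107 to 159925507. It had 29865, 28956 and 28296 normalized counts in control libraries and 21204, 21605 and 19975 in knockdown libraries. The groups were well apart, and the log2 fold change was -0.47 (standard error 0.039, edgeR adjusted p = 5.9e-07). It stayed between -0.49 and -0.41 over 13 alternatives. The decrease is smaller than the fold change cutoff of 1.5.

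TAGLN2 is also a neighbour of the siRNA target, with a gap of 32528 bases between its annotated 5′ end and the start of LINC01133. The genes around LINC01133 were therefore listed, a choice made after the position of TAGLN2 was seen. Within 250 kb, 33 other genes are annotated and 9 were tested, of which 6 passed the test, 2 lower and 4 higher, against 48.3% of all genes tested. The 2 that fell were the nearest tested genes on the side before LINC01133, IGSF9 (gap of 12422 bases) and TAGLN2. For IGSF9, which encodes an immunoglobulin-family adhesion protein, the log2 fold change came to -0.61 (standard error 0.085, adjusted p = 5.6e-05). On the other side the nearest tested gene, PIGM, was at 0.38 (standard error 0.055, adjusted p = 7.3e-05). Whether the position near LINC01133 has a part in the decrease of TAGLN2 was not tested.

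**Figure D2:**
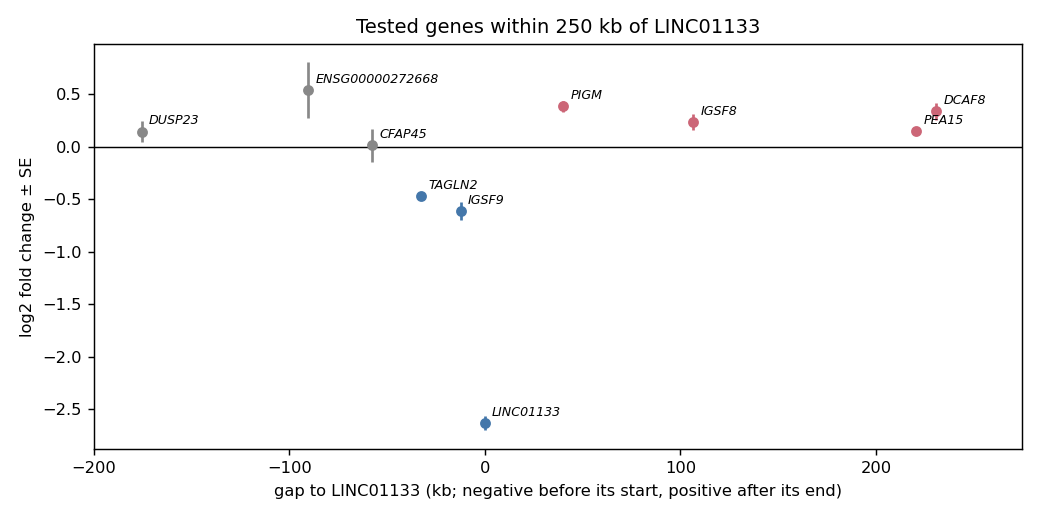
Log2 fold change ± standard error of knockdown against control (vertical axis) for LINC01133 and the 9 other tested genes within 250 kb, by their gap to it in kb (horizontal axis); blue is lower, red higher and grey not past the test. TAGLN2 and IGSF9, at -0.47 and -0.61, are the 2 nearest tested genes before LINC01133, and the 4 tested genes after it lie between 0.15 and 0.38. The tested genes farther before it, CFAP45 (0.01), ENSG00000272668 (0.54) and DUSP23 (0.14), did not pass the test.

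Tropomyosins are coiled coils that lie end to end along the actin filament, and each gene makes several forms. TPM1 (ENSG00000140416.23), on chromosome 15 from 63042620 to 63071915, had 16476, 16178 and 16890 normalized counts in control libraries and 20145, 20019 and 18800 in knockdown libraries. The lowest knockdown library was above the highest control library. The log2 fold change was 0.25 (standard error 0.038, edgeR adjusted p = 1.2e-04), a modest rise. TPM2 (ENSG00000198467.16), on chromosome 9 from 35681992 to 35690056, had 10077, 9337 and 9380 normalized counts in control and 7821, 7867 and 7755 in knockdown libraries. All knockdown libraries were below all control libraries (log2 fold change -0.30, standard error 0.039, adjusted p = 3.2e-05). TPM4 (ENSG00000167460.17, chromosome 19 from 16067021 to 16103002), a tropomyosin of non-muscle cells, had 31191, 31617 and 31245 against 31639, 32118 and 30502 normalized counts. These values overlapped, and its log2 fold change of 0.0032 (95% interval -0.07 to 0.08) was exactly the median of the 15155 genes tested. TPM3, which is not one of the 10, rose from 12152 ± 140 to 15017 ± 418 (log2 fold change 0.31, adjusted p = 1.2e-05), with 9 named pseudogenes that can take part of its reads.

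Summed over the 4 tropomyosin genes and scaled by exon length, TPM2 made up 41.6%, 39.7% and 39.7% of the tropomyosin RNA in control libraries and 33.2%, 33.3% and 34.1% in knockdown libraries. TPM1 made up 14.7%, 14.9% and 15.5% against 18.5%, 18.3% and 17.9%. For TPM4 the shares were 33.1% to 34.6% in control and 34.5% to 34.9% in knockdown libraries, which overlap. As a share of the counts, without scaling by length, TPM4 made up 44.6%, 45.7% and 44.8% in control and 42.2%, 42.7% and 42.6% in knockdown libraries, which do not overlap, so that this comparison depends on the lengths used. The count shares of TPM2, the smallest of the 4, were 14.4%, 13.5% and 13.4% against 10.4%, 10.5% and 10.8%. For TPM1 they were 23.6%, 23.4% and 24.2% against 26.9%, 26.6% and 26.3%. The directions of TPM1 and TPM2 thus held on both scales, while the order of the genes did not. Gene counts do not tell the isoforms apart, so a change between muscle and non-muscle forms of TPM1, TPM2 or CALD1 was not measured here.

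Ratios of 2 genes of the same library do not depend on how libraries were scaled, and were added after the data were seen. There were 1.64, 1.73 and 1.80 reads of TPM1 for each read of TPM2 in control libraries and 2.58, 2.54 and 2.42 in knockdown libraries. On the log2 scale this ratio was 0.78 ± 0.070 in control and 1.33 ± 0.046 in knockdown cells. The log2 ratio of TAGLN to TAGLN2 went from -2.63 ± 0.10 to -1.98 ± 0.12, that of CNN1 to CNN2 from -6.80 ± 0.071 to -5.51 ± 0.12, and that of ACTA2 to ACTB from -10.45 ± 0.087 to -9.71 ± 0.12. TPM1 to TPM4 had the smallest difference of the 5 ratios, 0.25. In each of the 5 ratios the groups did not overlap, and the two-sided exact permutation test gave p = 0.1, the smallest value that 3 against 3 libraries allow. Each ratio holds a gene whose own groups did not overlap, as was so for 57.3% of all genes tested. These ratios share the values used above, so that neither their separation nor this p is separate evidence.

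**Figure D3:**
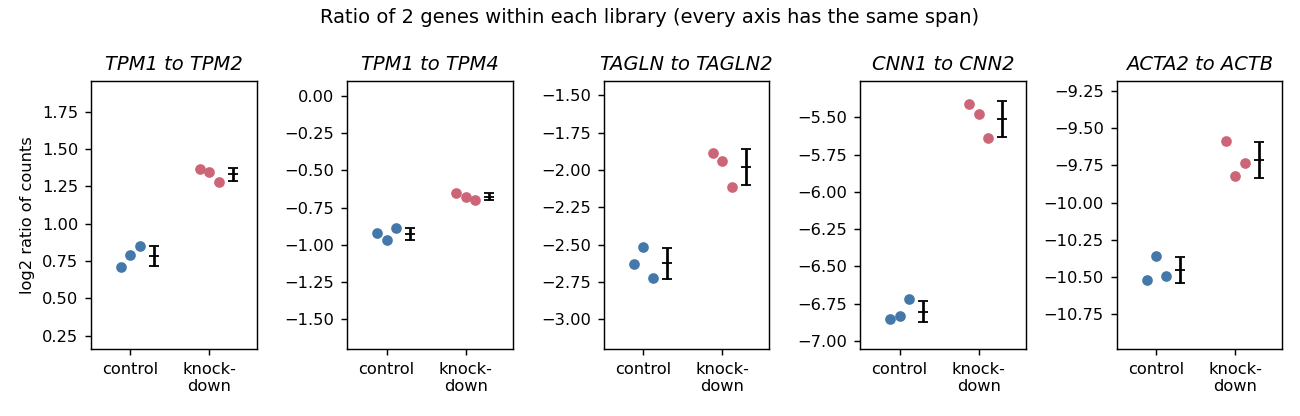
Log2 ratio of the counts of 2 genes in each library (vertical axes, all of the same span), for control and knockdown libraries; points are libraries and the bar is the mean ± SD. In each of the 5 panels the 3 knockdown libraries lie above the 3 control libraries, with the widest gap for CNN1 to CNN2, 1.29 on the log2 scale.

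MYL9 (ENSG00000101335.10, chromosome 20 from 36541497 to 36551447) encodes the regulatory light chain of smooth muscle myosin, the protein that myosin light chain kinase phosphorylates. It had 5707, 5697 and 5101 normalized counts in control and 5979, 5920 and 5293 in knockdown libraries. The groups overlapped, with a log2 fold change of 0.06 (95% interval -0.06 to 0.18, adjusted p = 0.39). Among its paralogs, MYL12A rose from 10787 ± 48.2 to 13204 ± 335 (log2 fold change 0.29, adjusted p = 1.5e-05). MYL12B (0.05) and the essential light chain MYL6 (-0.0037) did not pass the test.

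CALD1 (ENSG00000122786.20, chromosome 7 from 134744252 to 134970729) encodes caldesmon, which holds myosin off the filament until calcium signals release it. Its normalized counts were 27458, 28754 and 27062 in control and 28665, 28823 and 28503 in knockdown libraries. Control replicate 2 lay within the range of the knockdown libraries, and the log2 fold change was 0.05 (95% interval -0.03 to 0.12, adjusted p = 0.30). Thus for TPM4, CALD1, CNN2 and MYL9 the 95% interval kept within 0.18 on the log2 scale in either direction.

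**Figure D4:**
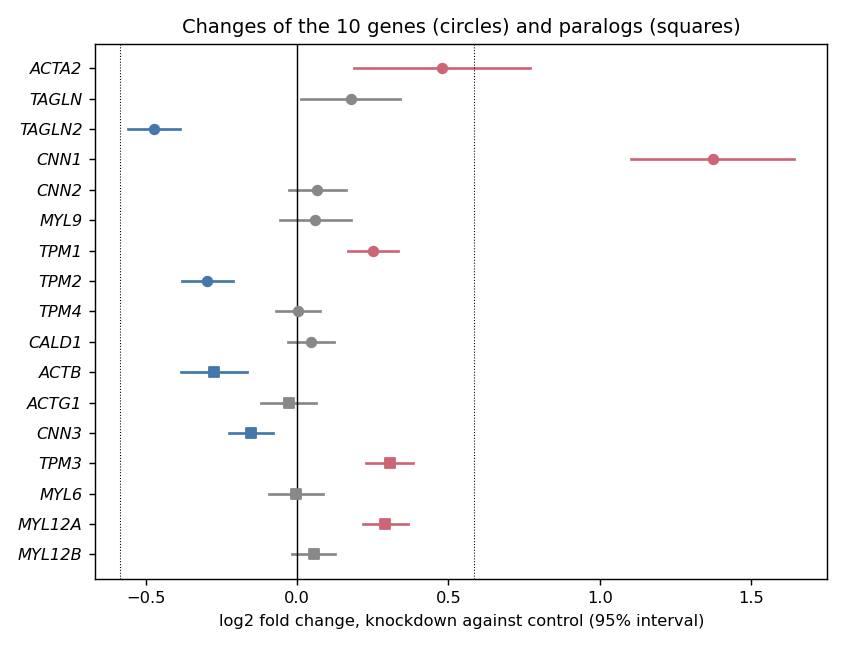
Log2 fold change of knockdown against control (horizontal axis) with its 95% interval for the 10 genes (circles) and their 7 tested paralogs (squares); red is higher, blue lower, grey not past the test, and dotted lines mark a fold change of 1.5. CNN1, at 1.37, lies past the dotted line with its whole interval, and all other genes but ACTA2 (0.48) lie between -0.47 and 0.31.

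Around the 10 genes, the markers of differentiated smooth muscle were mostly missing. KCNMB1 and PCP4 had 0 counts in all 6 libraries, which does not exclude a very low level, and MYH11 (smooth muscle myosin), MYOCD (myocardin) and PLN had 0 to 2. Of the 10 genes of this list 4 were tested. SMTN, which encodes smoothelin, rose from 875 ± 95.1 to 1033 ± 54.3 normalized counts (log2 fold change 0.24, adjusted p = 0.013). SYNPO2 (-0.55) and the intermediate filament gene SYNM (-0.34) fell, and LMOD1 did not pass the test. Of all genes tested 23.3% rose and 25% fell. DES, which was below the filter, had 7, 8 and 11 counts in control and 5, 2 and 2 in knockdown libraries.

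For the myosin II motor and its regulators, 4 of 14 tested genes rose and 7 fell, against 23.3% and 25% of all genes tested. MYLK, the kinase that phosphorylates MYL9, fell from 12149 ± 1119 to 7085 ± 160 (log2 fold change -0.78, standard error 0.055, edgeR adjusted p = 1.3e-07). MYLK was the only gene of the list past the fold change cutoff, which 11.7% of all genes tested passed. PPP1CB, the catalytic subunit of the phosphatase that acts against it, fell by 0.32 on the log2 scale, and the phosphatase subunit PPP1R12B fell by 0.21, a call lost with library size alone as scaling. MYH9, the main non-muscle myosin heavy chain, rose (0.18), as did the phosphatase subunit PPP1R12C (0.28). MYH14 had 0 counts in all libraries. Without knockdown replicate 1, 7 genes of this list passed the test instead of 11, and over all genes 6103 passed it instead of 7315.

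Of 20 stress fibre and focal adhesion genes, all tested, 5 rose, 7 fell and 8 did not pass the test, beside a background of 48.3% called, and the median log2 fold change was 0.02. PALLD, the actin scaffold palladin, rose from 5936 ± 337 to 8021 ± 105 normalized counts (log2 fold change 0.43, adjusted p = 2.7e-06), and PDLIM5 (0.25) and VCL, which encodes vinculin (0.24), rose less. SYNPO (-0.33), CSRP2 (-0.33) and the muscle filamin FLNC (-0.30) fell. None of the 20 passed the fold change cutoff, against 11.7% of all genes tested.

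SRF itself rose from 1365 ± 67.4 to 1822 ± 51.7 (log2 fold change 0.42, standard error 0.046, edgeR adjusted p = 8.6e-06). Its cofactor MRTFA rose by 0.23 on the log2 scale (adjusted p = 0.0032). The ternary complex factors ELK3 (-0.38) and ELK4 (-0.15), which compete with MRTFA for SRF, fell, the latter not with library size alone as scaling. ELK1 (0.013) and MRTFB (0.0049), of the same list, did not pass the test. In the whole list 2 of 9 tested genes rose and 2 fell, which is no more than the background share of 48.3%.

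Of 14 other markers of fibroblasts and myofibroblasts, all tested, 0 rose and 8 fell, where 23.3% of all genes tested rose and 25% fell, with a median log2 fold change of -0.29. PDGFRA fell from 249 ± 45.9 to 86.9 ± 10.7 (log2 fold change -1.52, adjusted p = 2.8e-06). LOX, a cross-linker of collagen, fell by 0.49 and VIM, which encodes vimentin, fell by 0.43 on the log2 scale. The summed level of this list was 355473 to 390026 normalized counts in control and 336643 to 349402 in knockdown libraries. In these cells ACTA2 and CNN1 thus rose while PDGFRA, LOX and VIM fell.

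Epithelial markers moved as well, with 0 of 8 tested genes higher and 5 lower (23.3% and 25% over all genes tested). Their summed level was 200642 to 211647 normalized counts in control and 128463 to 134360 in knockdown libraries, and log2 fold changes were -2.02 for CDH1, -0.88 for KRT19 and -0.63 for KRT8. The study reports that its follow-up measurements bore out the loss of CDH1 but not the reduction of KRT19. Of the markers of pericytes, endothelium, leukocytes and skeletal muscle, 5 of 12 were tested and 3 fell (background 25%), all of them pericyte markers, NOTCH3 (-1.03), CSPG4 (-0.72) and RGS5 (-0.54). Their summed level was 2744 to 3209 in control and 1731 to 1858 in knockdown libraries. The striated muscle genes MYH7, CKM and TNNT3 had 0 counts in all libraries. The part of these marker changes in those of the 10 genes was not tested. In these bulk libraries, fewer cells of a kind and less RNA per cell cannot be told apart.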

How the data were processed

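The data were RNA-sequencing libraries of 12Z cells, 3 control and 3 LINC01133 knockdown, described by the study as biological replicates and grouped by their titles. The authors aligned the read pairs with STAR 2.7.6a to GRCh38.p13 with GENCODE v36, kept reads with a single place in the genome, and deposited raw counts per gene in 3 columns, 1 unstranded and 1 for each strand. The column opposite to read 1, used here, held 93.9% to 94.1% of stranded counts. Of 60660 gene IDs 60419 were matched to a symbol of GENCODE v44, from which positions and lengths were also taken.

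Genes were filtered by filterByExpr (minimum count 10) and normalized by the TMM method. Knockdown was compared with control in edgeR 4.0.16 under R 4.3.3 (quasi-likelihood, two-sided, condition as only term), and p-values were adjusted over the 15155 genes tested (Benjamini-Hochberg). The fit was tested on simulated counts with the same dispersion for all genes and 200 changed genes. It recovered all 200 and called 4 unchanged genes. In the real data 7315 genes were called, so this does not show how the fit performs there. Normalized counts are scaled to the mean effective library size. Standard errors were derived from the F statistic, and 95% intervals from the t distribution.

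The 10 genes and all lists were chosen with earlier results of these data known. From each list, the text names up to 3 genes with the highest and up to 3 with the lowest log2 fold change. These were taken among genes past the test whose mean normalized count reached 100. The text also names all paralogs above the filter, genes at or near 0 counts, and a few genes chosen later (COL1A1, EPCAM, CLDN4, MUC1, LMOD1, DES, ELK1, MRTFB). A gene of the myosin list that this rule names is not reported here. Alternatives were DESeq2 1.42.0, other scalings and filters, the unstranded column, a replicate block, glmTreat, and each library left out in turn.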

Additional observations from a re-analysis of the deposited data

How the results depend on the processing

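CNN1, TPM1, TAGLN2 and TPM2 kept their direction and their call under all 13 alternatives run for each of them. Library size alone as scaling called 8 of the 10 genes instead of 5, adding TAGLN (0.24), CNN2 (0.13) and CALD1 (0.11), and moved the median of all genes tested to 0.065. Over all genes it called 7640 instead of 7315. TAGLN also passed with no filter on low counts (0.18) and with the replicate block (0.17, adjusted p = 0.0045), which changed no other call among the 10 genes. Leaving out each library in turn gave log2 fold changes of 0.38 to 0.55 for ACTA2, 0.11 to 0.27 for TAGLN and -0.0099 to 0.027 for TPM4. TPM4, which was not called, also changed sign with DESeq2 (-0.00023) and with the unstranded column (-0.016). With the unstranded column 2 of the 10 genes passed the fold change cutoff, the second being ACTA2, and over all genes 1794 passed it instead of 1778. DESeq2 called 5 of the 10 genes, and over all genes 6140 instead of 7315. For all genes tested, glmTreat against a fold change of 1.5 called 578 genes instead of 1778. Same-numbered libraries had correlations of -0.013, 0.0049 and 0.054 over all genes tested, and not every library was closest to its own number. With 3 libraries per group this cannot exclude that libraries were paired by number. Replicate 3 was the lowest of both groups for ACTA2, TAGLN, TAGLN2, CNN2, MYL9 and CALD1, and not for CNN1, TPM1, TPM2 and TPM4. The replicate block called 7251 genes over all genes instead of 7315. The cause of these differences was not tested. At 78.8 and 89.6 normalized counts in control cells, CNN1 and ACTA2 had larger standard errors (0.12 and 0.13) than the other 8 genes.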
